A study of Mus musculus with 3 samples.

Results

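The genes described here are the mRNAs and tRNAs of the mouse mitochondrial genome in splenic T cells. They are the genes whose symbol begins with mt-, without the mitochondrial ribosomal RNAs mt-Rnr1 and mt-Rnr2, and they number 35 of the 55536 annotated genes in the deposited tables: 13 mRNAs and 22 tRNAs. Total RNA with a spike-in mix was sequenced from CD3 cells of the spleen of virgin female B6CASTF1/J mice aged 66 days, with 300 ng of RNA per library. Mice of B6CASTF1/J have a C57BL/6 dam and a CAST/EiJ sire, and mitochondrial DNA is inherited from the dam. The 3 libraries, replicates 1, 2 and 3, form 1 group and carry 3 biosample records under 1 donor record, so that SDs and p-values cover the spread of these samples alone, possibly a technical one. Each library was quantified by the authors in 2 ways, called here the read-based tables (made from the reads and an index of the transcripts) and the alignment-based tables (made from alignments to the transcriptome). Both give estimated counts, in which a read that matches several entries is divided among them, and TPM (abundance per effective length, scaled to the same total in every library).

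Mitochondrial DNA is transcribed from both strands into long precursors in which tRNAs lie between most of the mRNAs. Cutting at the tRNA ends frees both, and the tRNAs then receive their 3′ end and their base modifications. The mRNAs encode core subunits of the complexes of oxidative phosphorylation, whose other subunits are encoded in the nucleus, and the tRNAs serve only the ribosomes inside the organelle. Resting T cells draw much of their ATP from this pathway, and they enlarge their mitochondria when activated.

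The libraries held 16.875, 14.989 and 16.197 M estimated counts of genes in the alignment-based tables (M, 1e6 counts), and spike-ins took 0.314, 0.318 and 0.309% of all counts. The T-cell label was checked on marker genes. All 8 T-cell markers exceeded 10 TPM in every library, led by Trbc2 at 650.0 ± 43.3 and Trac at 492 ± 16.4 TPM (SD, n = 3, as for all levels here). The 5 B-cell markers summed to between 9.91 and 16.5 TPM per library, the 5 monocyte and macrophage markers to between 23.7 and 29.3 TPM, the 3 natural killer markers to between 11.6 and 16.4 TPM, the 2 neutrophil markers to between 4.36 and 5.55 TPM, and the 3 platelet markers to between 3.73 and 6.54 TPM. The 5 erythroid markers summed to 54.1, 96.6 and 42.4 TPM in replicates 1, 2 and 3. The 4 globins among them were highest in replicate 2, while Alas2, the enzyme that begins heme synthesis in red cells, was near 0 and lowest there, at 0.34, 0.22 and 0.28 TPM.

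The sequences of the members show 3 features on which the measurements turn: the short length of the tRNAs, the overlap between neighbouring genes, and near-identical copies of several mRNAs in nuclear chromosomes. All sequences are from the GENCODE M21 transcripts on mm10, written 5′ to 3′. The tRNAs were 59 to 75 bases long. The shortest was mt-Ts2, a serine tRNA that lacks an arm of the usual cloverleaf (chrM:11613-11671, plus strand), and the longest mt-Tl1, a leucine tRNA (chrM:2676-2750, plus strand), shown here because no entry of this length received a count.
mt-Ts2: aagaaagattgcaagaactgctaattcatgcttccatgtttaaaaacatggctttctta
mt-Tl1: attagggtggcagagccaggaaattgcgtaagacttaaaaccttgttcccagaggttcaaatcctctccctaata

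Of the 22 tRNA genes, 14 lie on the plus strand of the reference with 12 of the mRNAs, and 8 lie on the minus strand with mt-Nd6. Neighbouring members overlapped at 9 places. The isoleucine tRNA mt-Ti (chrM:3706-3774, plus strand) and the glutamine tRNA mt-Tq (chrM:3772-3842, minus strand) share 3 bases on opposite strands, in capitals below.
mt-Ti: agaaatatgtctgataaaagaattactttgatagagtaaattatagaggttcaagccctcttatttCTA
mt-Tq: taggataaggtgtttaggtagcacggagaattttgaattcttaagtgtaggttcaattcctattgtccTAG
The longest overlap joins mt-Atp8 and mt-Atp6, both subunits of the ATP synthase (complex V), which share 43 bases of the plus strand. The last 70 bases of mt-Atp8 (chrM:7900-7969) and the first 70 of mt-Atp6 (chrM:7927-7996) are given with the shared stretch in capitals.
mt-Atp8: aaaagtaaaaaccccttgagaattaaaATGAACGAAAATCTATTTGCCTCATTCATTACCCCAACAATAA
mt-Atp6: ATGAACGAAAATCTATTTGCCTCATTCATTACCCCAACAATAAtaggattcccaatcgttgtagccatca
The mRNA lengths ran from 204 bases (mt-Atp8) to 1824 bases (mt-Nd5), and 3 of them, mt-Co3, mt-Nd4 and mt-Cytb, are no multiple of 3. In such mitochondrial mRNAs the poly(A) tail is known to complete the stop codon. As transcribed, the 12 plus-strand mRNAs held 5.88 to 16.1% G and 22.1 to 30.0% C, while mt-Nd6, from the other strand, held 28.1% G and 5.97% C.

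Near-identical nuclear copies were sought among all annotated transcripts, with at least 95% identity over at least 100 bases. There were 11, for 9 of the 13 mRNAs, and all are annotated as pseudogenes. None was found for mt-Nd1, mt-Atp8, mt-Nd6 or mt-Cytb among annotated transcripts, the only sequences searched. A block of 7 copies lies on the minus strand of chromosome 1 (chr1:24611535-24616197, 4663 bases) and follows the mitochondrial order from mt-Co1 to mt-Nd4, where the matching stretch of mitochondrial DNA is 4653 bases long (chrM:6390-11042). Within this block Gm28661 matches mt-Co2, Gm10925 matches mt-Atp6, Gm28437 matches mt-Co3, Gm10222 matches mt-Nd4l and Gm28439 matches the first 876 bases of mt-Nd4, each at 100% identity. Gm28438 differs from the first 345 bases of mt-Nd3, and Gm29216 from the last 483 bases of mt-Co1, by 1 base each. The position of mt-Atp8 (chrM:7766-7969) falls within the matching stretch. The 43 bases that mt-Atp8 shares with mt-Atp6 are matched by Gm10925. Whether the rest of mt-Atp8 has a copy between the annotated ones was not tested. The other copies, Gm13341 (mt-Co2), Gm13340 (mt-Co1) and Gm13339 (mt-Nd2) on chromosome 2 and Gm4076 (mt-Nd5) on chromosome 13, matched at 95.18 to 97.61% identity.

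Few bases set mt-Co2, mt-Atp6, mt-Co3, mt-Nd3 and mt-Nd4l apart from their copies on chromosome 1. The annotated mt-Co2 ends with 3 bases, in capitals, that its copy Gm28661 lacks, and the 2 are otherwise identical (chrM:7657-7696, plus strand, and chr1:24614885-24614921, minus strand).
mt-Co2: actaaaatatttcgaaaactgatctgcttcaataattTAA
Gm28661: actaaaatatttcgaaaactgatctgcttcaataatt
Of mt-Atp6, mt-Nd3 and mt-Nd4l, 3 bases each lie outside the copy, and of mt-Co3 1 base. For mt-Co1 the copies differ in the window below at the bases in capitals (chrM:6390-6438, plus strand, chr1:24616140-24616188 and chr2:22588537-22588585, minus strand). The change from mt-Co1 to Gm29216 is A1066T, counted from the first base of mt-Co1, and 1062 bases of mt-Co1 lie outside that copy.
mt-Co1: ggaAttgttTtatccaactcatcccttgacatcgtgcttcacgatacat
Gm29216: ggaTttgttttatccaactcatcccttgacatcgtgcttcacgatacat
Gm13340: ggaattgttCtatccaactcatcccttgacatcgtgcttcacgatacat
For mt-Nd3 the single difference within the copy is T3C, again counted from the first base (chrM:9459-9486, plus strand, and chr1:24613092-24613119, minus strand).
mt-Nd3: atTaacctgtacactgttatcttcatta
Gm28438: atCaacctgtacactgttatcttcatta

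No tRNA was measured in either set of tables. All 22 stood at 0 counts in replicates 1, 2 and 3, in the read-based and in the alignment-based tables. A count of 0 allows up to 3 counts, or 1.78e-05, 2.00e-05 and 1.85e-05% of the counts of genes in replicates 1, 2 and 3 (counting error only), but here it sets no limit on the tRNAs themselves. The effective length is the number of positions at which a read can start. In the read-based tables the tRNAs had effective lengths of 25.8 to 34.3 bases, yet none of the 2505 entries of 100 bases or less had a count. The shortest read-based entries with a count were 210, 203 and 203 bases long in the 3 libraries. In the alignment-based tables the effective length was 0 for all 28694 entries of 100 bases or less, none of which had a count in any library, and the shortest entry with a count was 101 bases long.

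**Figure D1:**
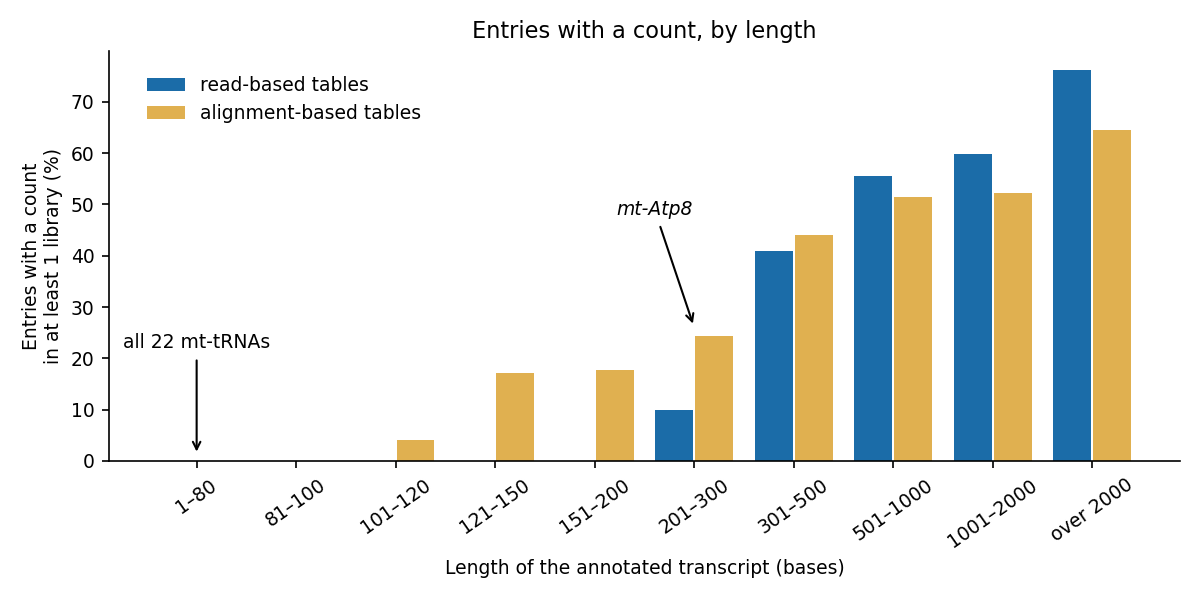
Percent of annotated transcripts with a count above 0 in at least 1 of the 3 libraries (y axis), by transcript length in bases (x axis), for the read-based and the alignment-based tables. No entry of 100 bases or less, where all 22 mitochondrial tRNAs lie, has a count in either, and in the read-based tables none of 200 bases or less has one.

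The shortest mRNA was missing from the read-based tables as well. mt-Atp8, a small membrane subunit of the ATP synthase, is 204 bases long. It had 0 counts in replicates 1, 2 and 3 of the read-based tables, against 1556, 1743 and 1901 counts in the alignment-based tables, which is 879, 1088 and 1073 TPM. Its effective length was 70.3 to 82.4 bases in the read-based and 104 bases in the alignment-based tables. Of the 248 read-based entries between 201 and 210 bases, only 1, 3 and 1 had a count in replicates 1, 2 and 3, while 28, 27 and 33 of 250 alignment-based ones did.

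Together the 13 mRNAs held 0.902 ± 0.0590% of all gene counts in the read-based and 0.899 ± 0.0628% in the alignment-based tables, in the second case with 0.828, 0.920 and 0.948% in replicates 1, 2 and 3. With the counts of the nuclear copies added, the share was 1.13 ± 0.0663% in the read-based and 1.38 ± 0.0773% in the alignment-based tables. The 11 copies alone held 0.232 ± 0.0226% of the read-based and 0.479 ± 0.0363% of the alignment-based counts. Per 100 spike-in counts, the mRNAs had 263, 288 and 306 counts. The share and the spike-in ratio were both lowest in replicate 1. mt-Co1, the catalytic subunit of cytochrome c oxidase (complex IV), held 39.9 ± 0.935% of the alignment-based mRNA counts without the copies. With the copies added, mt-Co1 held 62547 of 217948, 61964 of 215915 and 66259 of 227045 counts in replicates 1, 2 and 3. This was a smaller share in each library. Of the 35 members, 12 reached 1 TPM in all 3 libraries in each set of tables, but they were not the same 12: mt-Atp8 was missing from the read-based and mt-Co2 from the alignment-based ones.

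mt-Co2, the subunit of complex IV that takes electrons from cytochrome c, had the widest spread of the mRNAs in the alignment-based tables, with a coefficient of variation of 110% of its TPM. In the read-based tables it had 3202, 2654 and 1950 counts in replicates 1, 2 and 3, and its copy Gm28661 had 17327, 17610 and 18629. In the alignment-based tables mt-Co2 had 983, 0.24 and 2588 counts and Gm28661 had 25352, 26042 and 24069. Replicate 3 was the lowest for mt-Co2 in the read-based tables and the highest in the alignment-based ones. With both copies added, the sum was 20531, 20265 and 20580 read-based and 26340, 26057 and 26671 alignment-based counts. The coefficient of variation of the alignment-based sum was 1.17% in counts, which are not scaled to the library. As TPM, the scale of the 110% for mt-Co2 alone, it was 4.88%.

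The third core subunit of complex IV, mt-Co3, had 6682, 5408 and 12786 read-based counts, against 13719, 14390 and 8216 for its copy Gm28437. Its alignment-based counts were 1998, 1720 and 5021, against 21728, 21310 and 19617 for the copy. Replicate 3 stood apart as the highest of mt-Co3 in both tables, and the copy was lowest there. Member and copy together had 23726, 23030 and 24638 alignment-based counts.

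mt-Atp6, the subunit of the ATP synthase that lines its proton path, had 12217, 15058 and 13897 read-based counts, against 7896, 7564 and 8079 for Gm10925. Its alignment-based counts were 5504, 7483 and 9988, against 24657, 23876 and 22596 for the copy. The member thus held 63.5 ± 2.92% of the pair in the read-based and 24.3 ± 6.21% in the alignment-based tables. The sum of the alignment-based pair was 30161, 31359 and 32584 counts.

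Among the subunits of complex I, the NADH dehydrogenase, mt-Nd4l and mt-Nd3 were split in opposite ways. mt-Nd4l had 1005, 1006 and 1054 read-based counts with its copy Gm10222 at 0 in all 3 libraries. In the alignment-based tables it had 2078, 980 and 1499 counts, while Gm10222 had 0, 1059 and 697. mt-Nd3 had 1137, 950 and 1478 read-based counts and Gm28438 had 391, 626 and 8.19. Its alignment-based counts were 1891, 1927 and 1828 with Gm28438 at 0 in all 3 libraries.

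mt-Co1 and mt-Nd4, whose copies on chromosome 1 cover only a part of them, held most counts of their pairs in both tables. mt-Co1 had 60383, 61817 and 64517 read-based counts, against 1854, 1834 and 2233 for Gm29216. Its alignment-based counts were 56069, 56210 and 59790, against 6475, 5749 and 6460 for Gm29216. mt-Nd4 held nearly all counts of its pair in both tables, and Gm28439, Gm13339 and Gm4076 were at or near 0. Gm13340 and Gm13341 had no more than 22.3 counts in any library of either table. Of the 13 members, 5 had a fractional alignment-based count in some library (mt-Co1, mt-Co2, mt-Co3, mt-Atp6 and mt-Nd4l), and once the copies were added every member had a whole number (within 0.02) in every library.

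**Figure D2:**
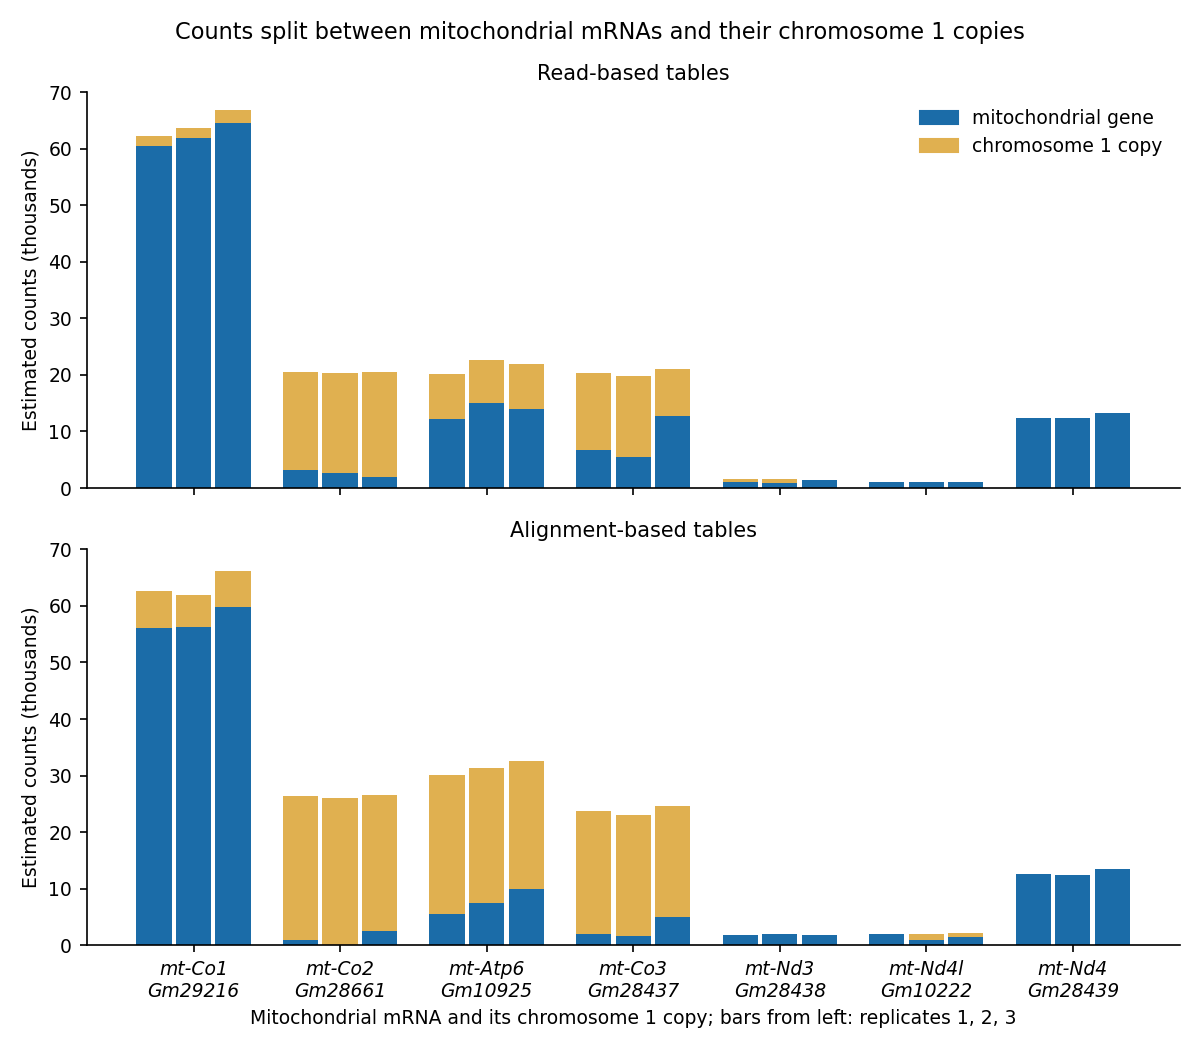
Estimated counts, in units of 1000, (y axis) of 7 mitochondrial mRNAs and of their copies on chromosome 1 (x axis, mitochondrial order), stacked, with 1 bar for each of replicates 1, 2 and 3, in the read-based tables (top) and the alignment-based tables (bottom). The height of a stack changes little between libraries while its division differs, as for mt-Co2, whose alignment-based part is 983, 0.24 and 2588 counts.

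The alignment-based tables also hold a posterior mean of each count and its SD, which measures how firmly the reads were divided. The posterior SD exceeded 5% of the estimated count in every library for 3 members, mt-Co2, mt-Co3 and mt-Atp6, and in replicates 2 and 3 also for mt-Nd4l. For mt-Co2 the posterior mean was 8529, 6456 and 8761 counts with posterior SDs of 2479, 1730 and 1770, far above the estimates of 983, 0.24 and 2588. For mt-Co3 it was 9479, 9197 and 10920 counts with posterior SDs of 2106, 1708 and 2114. For mt-Atp6 it was 8461, 11111 and 12513 counts with posterior SDs of 1497, 1590 and 1513. In all 9 cases the estimated count was more than 1 posterior SD below the posterior mean. The posterior SD of mt-Nd4l was 4.36, 21.5 and 18.4% of its estimate, and that of mt-Nd3, with 1 base that differs from its copy, 2.01 to 2.61%. mt-Co1 and mt-Nd4, with 1062 and 502 bases outside the chromosome 1 copy, had posterior SDs of at most 0.233 and 0.103%. The posterior SD was 0 for mt-Nd5 and for the 4 members without an annotated copy.

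**Figure D3:**
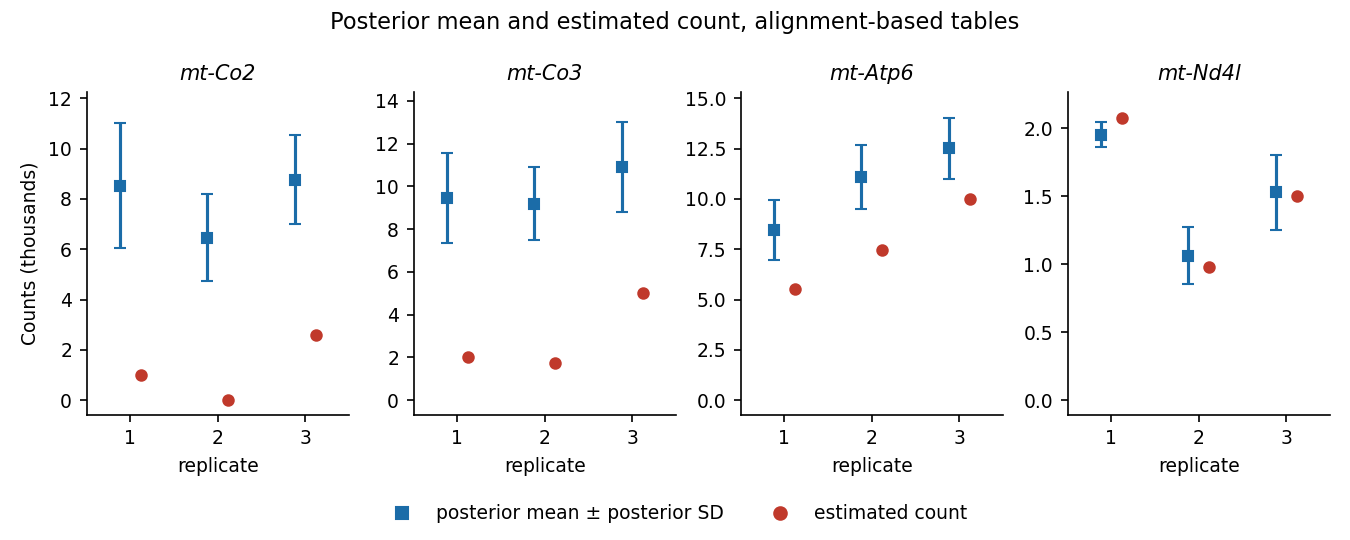
Posterior mean with its posterior SD (squares with bars) and estimated count (circles), both in units of 1000 counts (y axis), of mt-Co2, mt-Co3, mt-Atp6 and mt-Nd4l in replicates 1, 2 and 3 (x axis). For mt-Co2, mt-Co3 and mt-Atp6 every circle lies below the bar.

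Whether a member varied between the libraries was tested in edgeR across all genes, by its residual dispersion against the trend for its abundance. For the alignment-based counts, 3 of the 12 members tested were called at an adjusted p under 0.05, against 0.565% of all 13280 genes: mt-Co3 (adjusted p = 1.82e-06), mt-Atp6 (0.000256) and mt-Nd4l (0.00171). An unadjusted p under 0.05 was found for 9 of the 12, against 5.69% of all genes. mt-Co2 did not enter this test because replicate 2 was near 0. It was called without a filter on low counts, where 5 members were called against 1.33% of genes, and with a mean count of at least 100, where 4 were called against 0.918%. Leaving out replicate 1, 2 or 3 gave 2, 3 and 2 called members, against 0.319, 0.623 and 0.258% of genes. mt-Atp6 lost its call without replicate 1 (edgeR adjusted p = 0.0923), mt-Co3 without replicate 3 (0.998) and mt-Nd4l without replicate 2 (0.0779). A non-robust fit kept 3 calls, against 0.211% of genes, posterior mean counts gave 2, against 0.477%, and DESeq2 marked 3 members as outlying, against 0.941%. From the read-based counts, 4 members were called, mt-Atp6, mt-Co2, mt-Co3 and mt-Nd3, against 0.653% of genes, and mt-Nd4l was not (edgeR adjusted p = 0.984).

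All members called in these fits have an annotated near-identical copy on chromosome 1, except mt-Atp8, which was called only without a filter. When the counts of each member and its copies were summed, edgeR called 0 of 13 members in the alignment-based tables, against 0.548% of genes, and DESeq2 marked 0 as outlying, against 0.915%. An unadjusted edgeR p under 0.05 was still found for 6 of the 13, against 5.73% of all genes. In the read-based tables the summed counts gave 0 of 12 members, against 0.616% of genes, and 3 of the 12 had an unadjusted p under 0.05, against 5.77% of genes. The edgeR adjusted p of the sums in the alignment-based tables was 0.98 for mt-Co3, 0.617 for mt-Atp6 and 0.969 for mt-Nd4l. The lowest was 0.139, for mt-Atp8.

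Because the split differed between the tables, the levels of the members were compared with their copies added, per effective length of the member. The levels that follow are from the alignment-based tables. On this summed TPM scale mt-Atp6 was highest at 3281 ± 227, 60.0 times the level of mt-Nd6. The 3 subunits of complex IV followed, mt-Co2 at 2742 ± 134, mt-Co1 at 2672 ± 122 and mt-Co3 at 2112 ± 74.0. Then came mt-Cytb, the cytochrome b of complex III, at 1168 ± 67.7 and mt-Atp8 at 1013 ± 117. The subunits of complex I were lower: mt-Nd1 at 938.5 ± 36.0, mt-Nd4l at 648.5 ± 26.6, mt-Nd4 at 610.1 ± 27.8, mt-Nd2 at 558 ± 16.5, mt-Nd5 at 504 ± 15.9 and mt-Nd3 at 462 ± 37.6. mt-Nd6, the only mRNA of the minus strand, was lowest at 54.7 ± 6.75, with 49.2, 52.7 and 62.2 TPM in replicates 1, 2 and 3. Libraries overlapped between 4 pairs of neighbours in this order: mt-Co2 and mt-Co1, mt-Atp8 and mt-Nd1, mt-Nd4l and mt-Nd4, and mt-Nd5 and mt-Nd3. All other neighbours were apart in all 3 libraries. These are levels of annotated genes, some of which overlap. mt-Atp8 and mt-Atp6 share 43 bases, with effective lengths of 104 and 581 bases, and mt-Nd4l and mt-Nd4 share 7 bases. Whether overlapping genes lie on the same RNA was not tested, nor was the part of entry length in the differences between them.

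Summed TPM from the read-based counts and effective lengths gave a partly different order. There mt-Atp6 averaged 3303 ± 146, mt-Co1 3146 ± 35.2 and mt-Co2 3114 ± 108, and the libraries of mt-Atp6 and mt-Co2 overlapped, since mt-Co2 reached 3233 in replicate 1, where mt-Atp6 had 3190. mt-Co3, mt-Cytb and mt-Nd1 followed, at 2498 ± 75.2, 1420 ± 19.0 and 1036 ± 37.4. The other subunits of complex I except mt-Nd6 lay between 569 (mt-Nd4l) and 712 (mt-Nd4). mt-Nd6 was again the lowest with a count, at 85.3 ± 5.36, so that mt-Atp6 stood at 38.7 times its level.

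Taken alone, the members had another order. In the read-based tables the summed level was 7.82 times the member's own for mt-Co2, 2.48 times for mt-Co3, 1.57 times for mt-Atp6, 1.30 times for mt-Nd3 and 1.03 times for mt-Co1. In the alignment-based tables it was 22.9 times for mt-Co2, 8.28 times for mt-Co3, 4.10 times for mt-Atp6, 1.40 times for mt-Nd4l and 1.11 times for mt-Co1. The alignment-based folds of mt-Co2 and mt-Co3 rest on single libraries: without replicate 3 they were 56.1 and 12.6 times, and without replicate 2 that of mt-Co2 was 14.8 times. mt-Co2 alone averaged 398 ± 109 TPM in the read-based and 120 ± 131 TPM in the alignment-based tables, and mt-Co1 alone was highest in both, at 3048 ± 32.2 read-based and 2411 ± 124 alignment-based TPM. For mt-Co2, mt-Atp6, mt-Co3 and mt-Nd4l, which hold no differing base within the copy on chromosome 1 and at most 3 bases outside it, RNA of that copy and RNA of the member cannot be told apart in these sums. Gm13340, Gm13341, Gm13339 and Gm4076, with 16 to 45 mismatches, held at most 22.3 counts of any sum.

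**Figure D4:**
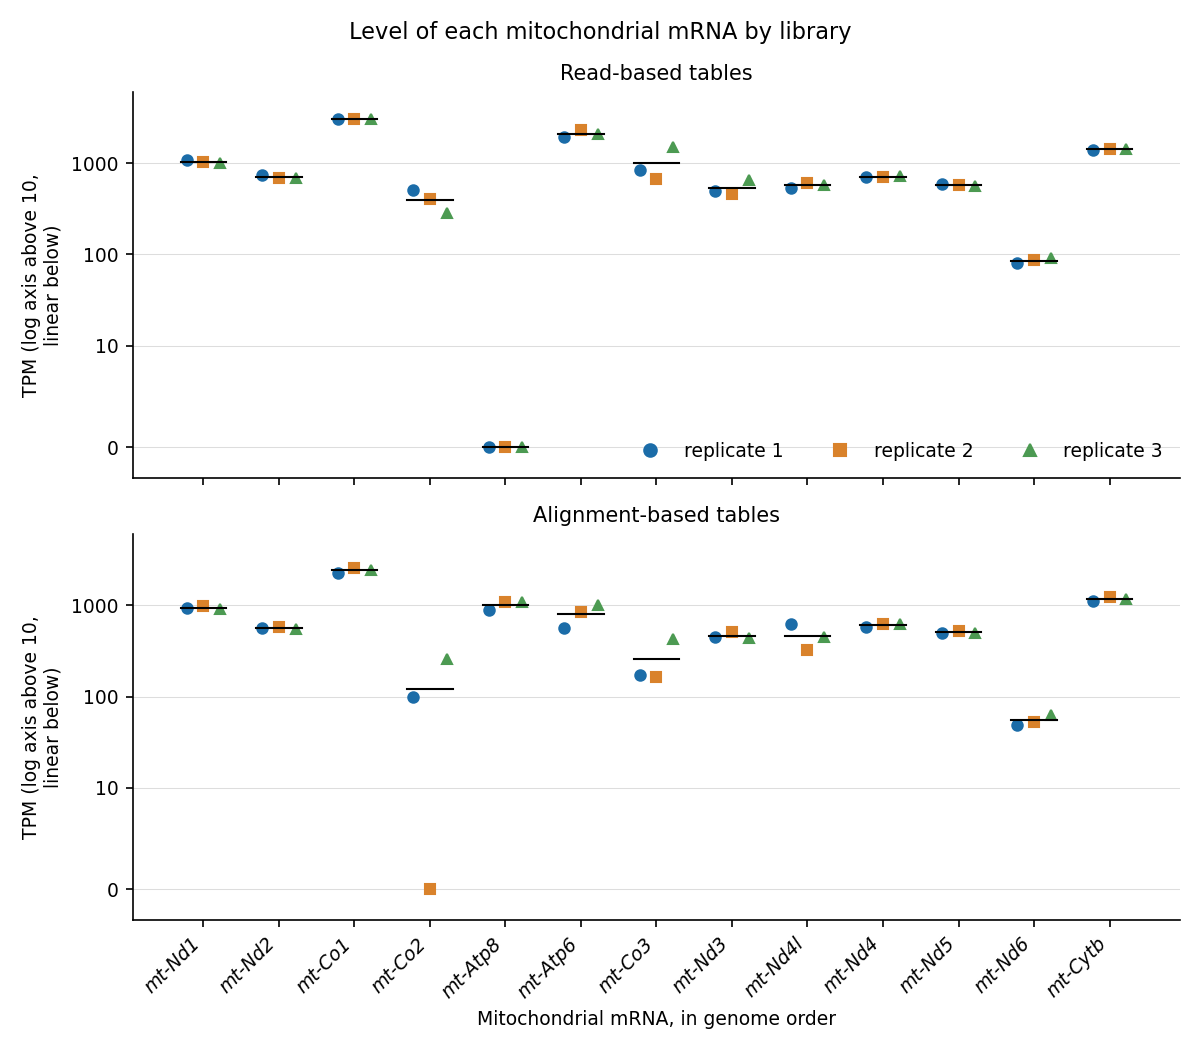
TPM of the 13 mitochondrial mRNAs without their copies (x axis, genome order) in replicates 1, 2 and 3, in the read-based tables (top) and the alignment-based tables (bottom). The y axis is logarithmic above 10 TPM and linear below, and black lines are means. mt-Atp8 lies at 0 in all 3 libraries of the top panel and mt-Co2 near 0 in replicate 2 of the bottom panel, while mt-Nd6 is below 100 TPM in both.

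Relative to the total of each library (CPM), the median mRNA had fewer counts in the read-based tables than in the alignment-based ones. Without the copies, the share of all 13 together differed by less than its spread between libraries. With the copies added, that share was lower in the read-based tables. The median over the 13 genes of the log2 ratio of CPM, with 0.1 CPM added, was −0.13 ± 0.01, negative in 3 of 3 libraries (exact two-sided sign-flip test, p = 0.25, the smallest that 3 libraries allow), against a median of 0.05 ± 0.01 over 12933 genes with at least 10 counts in every library of both tables. Not all members lay below 0: the mean log2 ratio was 3.84 ± 5.82 for mt-Co2, 1.46 ± 0.21 for mt-Co3 and 0.76 ± 0.36 for mt-Atp6, and 0.00 ± 0.01 for mt-Co1. On the TPM scale, which divides by the effective length, the median log2 ratio was 0.31. The effective length of mt-Nd1, for example, was 668 to 690 bases in the read-based tables and 857 bases in the alignment-based ones. With the copies added, the median log2 ratio of CPM was −0.33 ± 0.01, and the ratio was between −0.14 and −0.10 for the 5 longest members, mt-Nd5, mt-Co1, mt-Nd4, mt-Cytb and mt-Nd2. It was −0.34 ± 0.01 for mt-Nd1, −0.34 ± 0.01 for mt-Co3, −0.48 ± 0.01 for mt-Co2, −0.66 ± 0.05 for mt-Atp6 and −0.22 ± 0.12 for mt-Nd6. The 2 shortest after mt-Atp8 had −0.41 for mt-Nd3 and −1.16 ± 0.01 for mt-Nd4l, so that mt-Nd4l kept 0.448 of its alignment-based share.

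The mitochondrial mRNAs were set against 73 nuclear-encoded subunits of the same complexes. The median of log2(TPM + 1) over the mRNAs exceeded that over the nuclear subunits by 3.82 ± 0.05, with 9.13, 9.17 and 9.08 for the mRNAs, against 5.33, 5.39 and 5.20 for the nuclear subunits, in replicates 1, 2 and 3 (higher in 3 of 3 libraries, exact two-sided sign-flip test, p = 0.25). With copies added to the mRNAs the difference was 4.54, but copies of the nuclear subunits were neither sought nor added, here or by complex. In complex I, the 7 mitochondrial mRNAs had a median of 558 TPM with copies added, against 25.9 TPM for 36 nuclear ones, of which Ndufa3 was highest at 121 ± 8.84 and Ndufb6 lowest at 13 ± 0.721 TPM. All but mt-Nd6 exceeded the highest nuclear subunit. In complex III, mt-Cytb lay above all 9 nuclear subunits, whose highest was Uqcrh at 126 ± 3.13 TPM. In complex IV, the 3 mitochondrial mRNAs had a median of 2672 TPM with copies added, against 67.2 TPM for 11 nuclear subunits led by Cox4i1 at 145 ± 11.7 TPM. That ratio of medians was 39.8 with copies added. Without copies it was 3.80 and rested on mt-Co3 alone, at 255 ± 152 TPM, and without replicate 3 it was 2.34. In the read-based tables the ratio was 30.8 with copies added and 9.96 without, where mt-Co3 stood at 1007 ± 446 TPM. In complex V, mt-Atp6 and mt-Atp8 lay above all 17 nuclear subunits in the alignment-based tables, while mt-Atp8 stood at 0 in the read-based ones. Of the nuclear ones, the catalytic Atp5b was highest at 217 ± 10.4 TPM and Atp5g2 lowest at 1.30 ± 0.695 TPM. None of the 72 nuclear subunits tested in edgeR was called variable between libraries, against 0.565% of all genes, and 4 had an unadjusted p under 0.05, against 5.69%. DESeq2 marked 0 of them as outlying, against 0.941% of all genes.

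**Figure D5:**
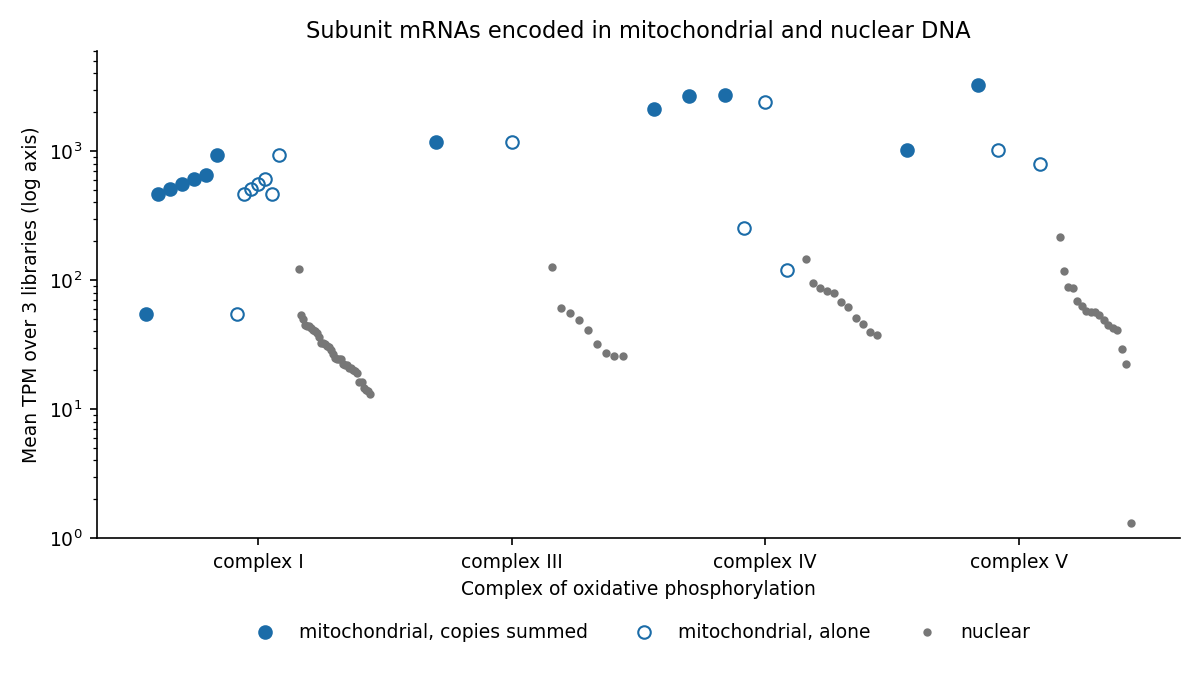
Mean TPM over 3 libraries on a logarithmic axis (y) of the mitochondrial mRNAs with copies added (filled circles), the same mRNAs alone (open circles, alignment-based tables) and nuclear subunits (grey points), by complex (x). All levels are from the alignment-based tables. There, with copies added, every mitochondrial mRNA except mt-Nd6 lies above all nuclear subunits of its complex, and mt-Co2 alone lies at 120 TPM.

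The nuclear genes that make and handle these RNAs had a median level of 9.93 TPM over the 91 matched genes of 5 lists, against 558 TPM for the 13 mRNAs alone, and 90 reached 1 TPM in all libraries. In mean TPM, 2 of them, Lars2 and Trmt1, lay above mt-Nd6, and Lars2 also lay above mt-Co2 without its copies. Of the 90 tested in edgeR, 2 were called variable between libraries, against the 0.565% of all genes. Among 15 genes of mitochondrial transcription and its DNA template, Polg, the DNA polymerase, stood at 50.1 ± 4.62 TPM, the termination factor family member Mterf3 at 26.7 ± 2.22 and the RNA polymerase Polrmt at 24.8 ± 4.11, while Mterf1b at 2.80 ± 0.593 and the elongation factor Tefm at 2.18 ± 0.169 TPM were lowest. Of 20 genes of RNA processing, stability and decay, Tbrg4 (47.1 ± 2.88 TPM), the oligoribonuclease Rexo2 (37.8 ± 2.26) and Fastk (31.9 ± 2.21) were highest, and 1110008L16Rik (3.14 ± 0.257) and Fastkd5 (3.00 ± 0.451), known in human cells for the cutting of mRNA ends that carry no tRNA, were lowest. No gene of these lists was called in edgeR, against 0.565% of all genes, and none had an unadjusted p under 0.05, against 5.69%. DESeq2 marked 0 of them, against 0.941% of all genes.

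Among 19 genes that finish and modify the tRNAs, several of which also serve cytosolic tRNAs, the methyltransferases Trmt1 (57.8 ± 2.80 TPM) and Nsun2 (37.1 ± 1.64) and Yrdc (35.7 ± 2.16) were highest, and Osgepl1 (3.52 ± 0.237) and Thg1l (2.73 ± 0.243 TPM) lowest. Cdk5rap1, which adds a methylthio group to mitochondrial tRNAs, was called variable (edgeR adjusted p = 0.00514), with 6.09, 14.4 and 5.98 TPM in replicates 1, 2 and 3. Among 23 genes that charge the tRNAs, the leucyl-tRNA synthetase Lars2 was highest and was called variable (edgeR adjusted p = 2.08e-05), with 164.5, 356 and 197 TPM. Both called genes were highest in replicate 2. The 4 globins and all 5 B-cell markers were highest there too, with B-cell sums of 12.1, 16.5 and 9.91 TPM in replicates 1, 2 and 3. Of these markers edgeR called Hba-a2 (adjusted p = 0.0321), with 11.5, 26.1 and 8.10 TPM, against 0.565% of all genes. An unadjusted edgeR p under 0.05 was found for 3 of the 5 B-cell markers and all 4 globins, against 5.69% of all genes. It was also found for 1 of 8 T-cell and 1 of 4 monocyte and macrophage markers tested. DESeq2 marked 3 of the 4 globins and 1 of the 5 B-cell markers as outlying, against 0.941% of all genes. It marked 1 of the 19 genes that finish the tRNAs and 1 of the 23 that charge them. The monocyte and macrophage, natural killer, neutrophil and platelet sums were instead lowest in replicate 2, at 23.7, 11.6, 4.36 and 3.73 TPM. The part of any of these cell types in the values of Cdk5rap1 and Lars2 was not tested. Whether all reads counted for Lars2 come from its mRNA was not tested either. Tars2 (42.2 ± 3.87 TPM) and Kars (29.8 ± 0.743), the threonyl and lysyl synthetases, followed Lars2, and Gatb (2.66 ± 0.248) and the prolyl synthetase Pars2 (2.47 ± 0.567 TPM) were lowest. Of 14 translation factors, the membrane insertase Oxa1l (27.6 ± 3.80 TPM), Letm1 (25.3 ± 4.04) and the elongation factor Tufm (19.8 ± 0.919) were highest, and Taco1 (3.58 ± 0.456) and Mtrf1 (0.370 ± 0.0529 TPM) lowest. Of the 13 tested, edgeR called none, against 0.565% of all genes, and 0 had an unadjusted p under 0.05, against 5.69%. DESeq2 marked 0, against 0.941% of all genes.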

How the data were processed

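The deposited gene and transcript tables of the 3 libraries were used. Per the labels, the library protocol was a directional kit with ERCC spike-ins. Per the deposited README files, both quantifications used mm10 with GENCODE M21, with tools not given in the sources used here. Per the file headers, the authors' alignment-based tables hold estimated counts, TPM, FPKM, posterior means and posterior SDs, and their read-based tables estimated counts and TPM, which were summed per gene. Of 81881 entries per library, 26248 named by a number only (at most 8.39 counts per library) and the spike-ins were left out of totals and tests.

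Copies were found with BLAST 2.17.0 (megablast, 95% identity, 100 bases). After rounding, filterByExpr and TMM scaling, estimated counts were fitted in edgeR 4.0.16 with an intercept only, as there is 1 group. An F test compared each gene's residual quasi-likelihood dispersion with the trend, with Benjamini-Hochberg adjustment over all genes and a threshold of 0.05. In simulated data for this spread (13153 genes), 95 of 100 genes with a 2-fold change in 1 library and 100 of 100 with a 4-fold change were called, and 5 of 200 calls were false. The simulation gave every gene the same dispersion and changed only genes above a low-count limit. Its false calls therefore do not measure those in the real libraries. Summed TPM is the count of a member and its copies per effective length of the member, scaled as mt-Cytb in that library. Differences of medians were tested by exact two-sided sign-flip permutation. DESeq2 1.42.0 gave size factors and outlying dispersions as alternatives. Others were the read-based tables, posterior means, FPKM, other pseudocounts, filters and thresholds, and each replicate left out. The sums with copies, their folds in both tables and without each replicate, and posterior means in the test of spread, were added after seeing the data.

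The members and gene lists were chosen with earlier results of these data known, so no count over a list is independent evidence. All members may be named, with the 3 highest, the 2 lowest and any called gene of each list. Of the listed symbols, 1 had no match. Copies beyond those with the highest counts were named after their values were seen. Software was R 4.3.3, Python 3.11.15, numpy 2.4.6, pandas 2.3.3, scipy 1.17.1 and matplotlib 3.10.9.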

Additional observations from a re-analysis of the deposited data

How the results depend on the processing

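The share of counts held by the mRNAs was 0.899%. It was 1.00% from posterior mean counts, 1.05% with ribosomal and small structured RNAs left out of the total, and 286 counts per 100 spike-in counts. With the copies added it was 1.38%, and 1.13% in the read-based tables. The count of 3 called members became 5 without a filter on low counts, and 0 with copies added in the alignment-based tables, in the read-based tables and in DESeq2. The number with a posterior SD above 5% of the count was 3, and 5 at a threshold of 1%. The median log2 ratio of the read-based to the alignment-based tables was −0.13 in CPM, −0.33 with the copies added and 0.31 in TPM, opposite in sign. Over the alternatives to the level difference of 3.82 from nuclear subunits, the values ran from 3.69 to 4.54. For the tRNAs no ratio was computed, since both tables are at 0. Leaving out 1 replicate gave shares of 0.874 to 0.934%, 2 to 3 called members and 12 to 13 members at 1 TPM or more. Of the mRNAs without an annotated copy, mt-Nd6 had the fewest alignment-based counts, 340 to 444. No paired analysis was possible because all libraries belong to 1 group.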

Other observations

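The alignment-based tables give a credibility interval of the TPM of each gene. Of 39 values of the mRNAs (13 genes in 3 libraries), 11 lay inside their own interval, 21 above it and 7 below it. The 7 below were the 3 values of mt-Co2, the 3 of mt-Co3 and mt-Atp6 in replicate 2. For mt-Co2 the intervals were 346.8 to 1258, 334 to 1017 and 573.5 to 1150 TPM in replicates 1, 2 and 3, which hold none of the listed values of 98.9, 0.03 and 260.3 TPM. Those above include members with no annotated copy: mt-Cytb stood at 1105, 1239 and 1159 TPM, above the upper bounds of 1076, 1203 and 1130 TPM. Yet the posterior mean count of mt-Cytb equalled its estimated count in each library, with a posterior SD of 0. A TPM outside its interval therefore need not mean that the count was uncertain, and why it lay outside was not tested. The intervals of mt-Nd6 and mt-Atp8 held their TPM in all 3 libraries.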
